A study of Mus musculus with 6 samples.

Results

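JAK-STAT signalling was followed through 10 genes in mouse haematopoietic stem cells that had repopulated irradiated hosts. The genes are the kinases Jak1, Jak2 and Tyk2, the transcription factors Stat3, Stat5a and Stat5b, the feedback genes Cish, Socs2 and Socs3, and Il6st. Every probe that the platform annotation lists under one of these symbols was taken, which gave 21 of the 46237 probes on the array, and each of the 10 genes had at least 1. The study asked what differs in stem cells that lack Matn4, the gene of the extracellular matrix protein matrilin-4, under the stress of transplantation. Cells labelled Matn4-/- (3 arrays) were set against wt cells (3 arrays). Each graft held equal shares of marrow from a Matn4-/- donor (CD45.2) and from a wt donor (both CD45.1 and CD45.2). Hosts were CD45.1 mice that had received 2 radiation doses of 500 rad, and cells of both genotypes shared them. A wt array and a Matn4-/- array may therefore come from the same recipients, which would make them a pair. The labels do not say so. The main fit is unpaired, so its SE may be wrong for probes that differ between recipients. The donor cells were sorted 4 weeks later as LSK CD150+ CD48- cells, and all mice are labelled as 12-week-old C57/BL6 females. Arrays of 1 genotype are called biological replicates in the series, but nothing says that they came from separate recipients, so p-values may measure technical spread only. In bulk samples, fewer cells of a type and less RNA per cell cannot be told apart.

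Cytokine receptors without a kinase of their own hold Janus kinases on their inner tails. When a cytokine joins the receptor chains, the kinases phosphorylate STAT proteins, which then enter the nucleus and switch on genes that include Cish and the Socs genes, whose products bind receptors or kinases and shut the signal down. In stem cells thrombopoietin acts through Jak2 and Stat5 to keep the cells in the marrow and able to rebuild blood, interleukin-6 family cytokines act through the shared receptor chain gp130, the product of Il6st, and mainly Stat3, and type I interferon uses Jak1 and Tyk2.

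STAT dimers bind the palindrome TTCNNNGAA, where N is any base. RefSeq promoter windows (GRCm38.p6, 250 bases before to 50 after the gene's start) were searched for it. Among the members it stood in those of Cish and Socs3, which are shown with each match in capitals. Of the 10 genes, 9 had a window, Socs2 had none in the table, and of the 11 windows in all, 2 held the motif.
Cish (chr9:107296409-107296708, plus strand): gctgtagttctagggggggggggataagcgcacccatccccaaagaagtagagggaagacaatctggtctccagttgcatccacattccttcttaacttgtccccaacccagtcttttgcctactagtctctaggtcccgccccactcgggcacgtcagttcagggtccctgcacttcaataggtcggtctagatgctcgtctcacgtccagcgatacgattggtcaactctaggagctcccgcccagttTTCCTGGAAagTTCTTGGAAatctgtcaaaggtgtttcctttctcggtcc
Socs3 (chr11:117969317-117969616, minus strand): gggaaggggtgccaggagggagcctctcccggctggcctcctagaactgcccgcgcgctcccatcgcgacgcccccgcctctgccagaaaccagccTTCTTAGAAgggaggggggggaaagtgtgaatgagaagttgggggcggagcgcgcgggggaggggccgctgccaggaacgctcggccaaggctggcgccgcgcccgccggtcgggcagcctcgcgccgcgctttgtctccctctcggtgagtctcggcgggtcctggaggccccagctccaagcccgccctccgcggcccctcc
The Cish window held 2 matches, at bases 251 to 259 and 262 to 270 of the window, and the Socs3 window 1, at bases 97 to 105. The motif reads the same on both strands, and 8.3% of the 32851 promoter windows of the genome held it at least once, against 0.457% with 2 or more. A match is a stretch of letters and not a measured binding site.

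The values are intensities on a linear scale that still contain the array's background. As a measure of that background, 12 probes for genes of the Y chromosome, absent from these female cells, ranged over 93.1 to 142, and a probe was called measurable on an array where it exceeded the brightest of these on the same array (124 to 142). The median of the Y-linked probes was lower, at 102.8 to 111.2 per array. A probe under the cutoff is therefore not shown to lack its transcript. The cutoff differed between arrays, so like intensities can be classed differently and counts of measurable arrays do not compare the genotypes. Of the 21 probes, 8 were measurable on all 6 arrays, 6 on some and 7 on none. The 8 belong to Stat3 (3 probes), Stat5a (2 probes), Cish, Socs2 and Il6st. No probe of Jak1, Jak2, Tyk2, Stat5b or Socs3 was measurable on every array. Brightness depends on the probe as well as on the transcript, so levels are not compared between probes.

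**Figure D1:**
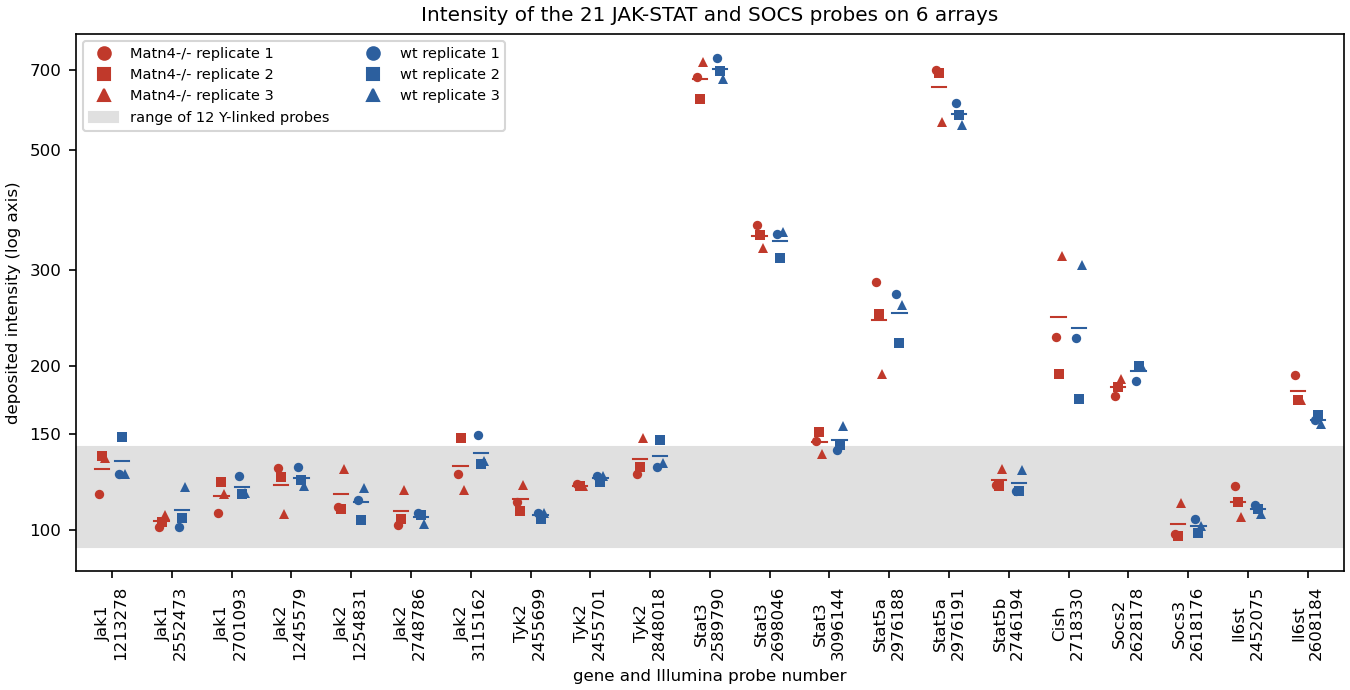
Deposited intensity (log axis) of each of the 21 probes on the 3 Matn4-/- arrays and the 3 wt arrays, with a bar at each group's mean and the range of the 12 Y-linked probes in grey. On every array 2 Stat3 probes, both Stat5a probes, Cish, Socs2 and 1 Il6st probe stand above the grey band, the third Stat3 probe lies at its upper edge, and most Jak1, Jak2 and Tyk2 points lie inside it.

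No member differed between the genotypes beyond the threshold. Of the 21 probes, 10 were higher and 11 lower in Matn4-/- cells, and 0 passed limma's test at a Benjamini-Hochberg adjusted p under 0.05 over all 46237 probes, where 0.026% of all probes passed. At an unadjusted p under 0.05 stood 1 member probe, against 4.52% of all probes. The groups did not overlap for 3 member probes, while this held for 9.99% of all probes. Matn4-/- lay above wt in 2 of the 3 (5.7% of all probes) and below in 1 (4.29%). The median log2 difference, Matn4-/- minus wt, was -0.01 for the members and 0.01 for all probes. Of all probes on the array, 25925 were higher and 20312 lower in Matn4-/- cells. Each of the 21 probes had an adjusted p of 0.9998 in limma. Among the 8 measurable probes, 4 were higher and 4 lower. For 6 of these 8, the 95% interval of the difference lay within 0.852-fold to 1.29-fold, and Cish and the dimmer Stat5a probe had wider intervals. These bounds depend on limma's default estimate of spread. With a robust estimate that follows brightness, the SE was larger for each of those 6. It was 0.107 against 0.059 for Socs2 and 0.102 against 0.063 for the brighter Il6st probe. Because background remains in the values, a fold from them understates the change in the transcript.

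**Figure D2:**
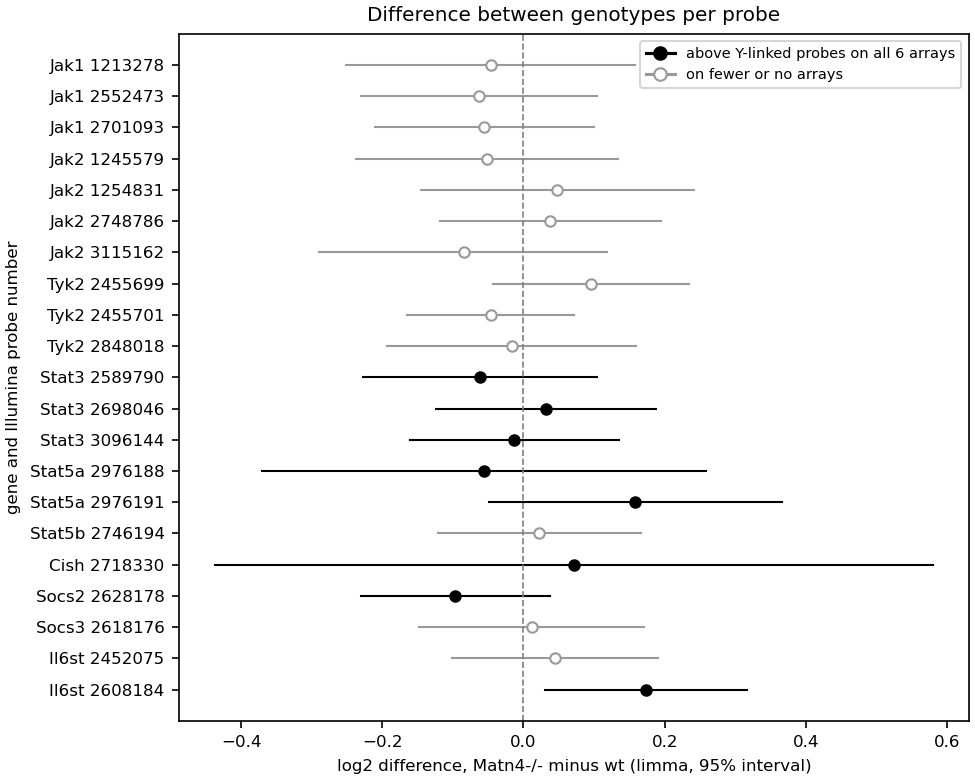
Log2 difference, Matn4-/- minus wt, of each of the 21 probes with its 95% interval from limma, filled where the probe was measurable on all 6 arrays. The interval of 1 Il6st probe (0.03 to 0.32) does not reach 0 before adjustment, and the other 20 do.

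Il6st, which encodes the receptor chain shared by interleukin-6, leukaemia inhibitory factor, oncostatin M and related cytokines, was the 1 member at an unadjusted p under 0.05. Its brighter probe (ILMN_2608184) read 193, 174 and 173 on the Matn4-/- arrays and 159, 163 and 156 on the wt arrays. All Matn4-/- arrays lay above all wt arrays, with 1 Matn4-/- array higher than the other two. The group means were 180.0 ± 11.1 in Matn4-/- cells and 159 ± 3.20 in wt cells (SD, n = 3 each), a log2 difference of 0.17 ± 0.06 (SE, 95% interval 0.03 to 0.32, limma unadjusted p = 0.0231, adjusted p = 0.9998). Without Matn4-/- replicate 1, the highest array, the difference was 0.12 (limma unadjusted p = 0.0781, adjusted p = 0.846). Over the 15 alternative limma fits described below, its unadjusted p ranged from 0.00929 to 0.107, so it was not under 0.05 in all of them. The other probe (ILMN_2452075) read 120.3, 113 and 106 in Matn4-/- cells and 111, 109 and 107 in wt cells, at the level of the Y-linked probes on all 6 arrays, so it gives no second reading.

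Stat5a and Stat5b encode the closely related factors through which thrombopoietin and other blood cytokines signal. In the RefSeq gene order of chromosome 11, Stat5b, Stat5a and Stat3 stand side by side, with 0 protein-coding genes between neighbours. The brighter Stat5a probe (ILMN_2976191) read 700.1, 692 and 562 on the Matn4-/- arrays, against 609, 579 and 556 on the wt arrays. Matn4-/- replicates 1 and 2 lay above all wt arrays, and Matn4-/- replicate 3 lay among them. The means were 651 ± 77.7 in Matn4-/- cells and 581 ± 26.6 in wt cells (SD, n = 3 each), a log2 difference of 0.16 ± 0.09 (SE, 95% interval -0.05 to 0.37, limma adjusted p = 0.9998). The second Stat5a probe (ILMN_2976188) read 285, 249 and 194 in Matn4-/- cells and 271, 220.2 and 259 in wt cells. Here the groups overlapped throughout, with a log2 difference of -0.06 ± 0.14 (SE, limma adjusted p = 0.9998), and Matn4-/- replicate 3 was again the lowest Matn4-/- array. The Stat5b probe read 121, 120.6 and 129 in Matn4-/- cells and 118, 118 and 129 in wt cells, and it was measurable on 1 of the 6 arrays. How well the probes tell Stat5a from Stat5b transcripts is unknown here.

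Over all probes, Matn4-/- replicate 3 resembled the rest least, with a mean Spearman correlation of 0.745 to the other arrays, against 0.852 to 0.866 for each of those. Without that array the brighter Stat5a probe had a log2 difference of 0.26 (limma unadjusted p = 0.0033, adjusted p = 0.452) and the dimmer one turned to 0.10 (adjusted p = 0.908). The Il6st difference was 0.20 (adjusted p = 0.68) and that of Socs2 -0.12 (adjusted p = 0.791) in the same fit. No member passed in it.

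Stat3, the factor that gp130 mainly activates, had the most probes measurable on all arrays, 3. The brightest (ILMN_2589790) read 679, 618 and 723 in Matn4-/- cells and 736, 696.5 and 674 in wt cells. The second (ILMN_2698046) read 363, 349 and 329 in Matn4-/- cells and 349.9, 315 and 353 in wt cells. In both probes the groups overlapped and the arrays of 1 genotype spread more widely than the means differed. The log2 differences were -0.06 ± 0.07 and 0.03 ± 0.07 (SE, n = 3 each). The third (ILMN_3096144), at 138 to 152 in Matn4-/- cells and 141 to 155 in wt cells, differed by -0.01 ± 0.06. The 95% intervals reached from -0.23 to 0.10 for the brightest probe, from -0.12 to 0.19 for the second and from -0.16 to 0.13 for the third.

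Cish encodes CIS, which STAT5 induces and which blocks STAT5 docking sites on receptors. Its probe (ILMN_2718330) read 226.5, 194 and 319 on Matn4-/- replicates 1 to 3 and 225, 174 and 307 on wt replicates 1 to 3. The same order held in both genotypes, with the array numbered 3 highest and the array numbered 2 lowest, and the groups overlapped throughout. The means were 246 ± 64.8 in Matn4-/- cells and 236 ± 66.9 in wt cells (SD, n = 3 each), a log2 difference of 0.07 ± 0.22 (SE, 95% interval -0.44 to 0.58, limma adjusted p = 0.9998). Arrays of 1 genotype spanned 1.65-fold in Matn4-/- cells and 1.76-fold in wt cells, while the genotypes differed by 1.05-fold. The SD of its log2 intensity over the 6 arrays, 0.35, exceeded that of 98.4% of the probes above the median brightness. Leaving out either Matn4-/- replicate 3 or wt replicate 2 turned the difference to -0.13, so in this unpaired comparison its sign depends on which arrays are kept. Between same-numbered arrays 1 to 3 the log2 differences were 0.008, 0.152 and 0.054, each higher in Matn4-/- cells. Whether these arrays were paired is not known. With the replicate number as a block the SE was 0.065, against 0.22 in the unpaired fit, so the SE of Cish depends on that question.

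Probes with a pattern over the arrays like that of Cish were searched for among the 18712 brighter probes with a gene symbol, by Pearson's r of log2 intensity over the 6 arrays. Highest were Plod1 (a collagen lysyl hydroxylase, r = 0.981), Stard9 (r = 0.981) and Hoxa9, a homeobox factor of stem and progenitor cells (r = 0.98). Hoxa9 was measurable on all 6 arrays and read 164, 155 and 181 in Matn4-/- cells and 159, 143 and 178 in wt cells. Plod1 was measurable on 4 arrays and Stard9 on 3. They are the best of many candidates over few arrays, so r is a description and no test is given. For the brighter Stat5a probe the search gave Dynll2 (r = 0.992), Tmbim1 (0.989) and Nfic (0.988), and for the brightest Jak2 probe Tmem186 (0.994), Yipf5 (0.991) and Ezh2 (0.99). The 3 probes like Stat5a and that of Ezh2 were measurable on all 6 arrays, but those of Tmem186 and Yipf5 on 1 each, and the Jak2 probe itself on 3.

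Markers of maturing blood cells differed between arrays of 1 genotype as well. The mean over the erythroid list, relative to the 6 arrays, was -0.02, -0.03 and 0.24 on Matn4-/- replicates 1 to 3 and -0.38, -0.05 and 0.23 on wt replicates 1 to 3 (log2). That of the neutrophil and monocyte list was -0.12, -0.11 and 0.16 in Matn4-/- cells and -0.20, 0.06 and 0.21 in wt cells. That of the mast cell and basophil list was -0.08, 0.00 and 0.30 in Matn4-/- cells and -0.19, -0.15 and 0.12 in wt cells. In each of the 3 lists the array numbered 3 was the highest of its genotype, as for Cish, whereas the lowest wt array was number 1 and not number 2 as for Cish. Summed intensities were 1605 to 2359 in Matn4-/- cells and 1307 to 2286 in wt cells for the erythroid list, 1749.9 to 2467 in Matn4-/- cells and 1627 to 2357 in wt cells for the neutrophil and monocyte list, and 906 to 1337 in Matn4-/- cells and 835.5 to 1148 in wt cells for the mast cell and basophil list. Measurable on all 6 arrays were 3 of 5 erythroid genes with a probe (Hba-a1, Hbb-b1, Car1), 3 of 10 neutrophil and monocyte genes (Mpo, Prtn3, Ctsg) and 1 of 6 mast cell genes (Mcpt8). Measurable on none were Epor, S100a8, Csf1r, Cd14 and Ms4a2. The other lists varied less. The megakaryocyte list stood at -0.01 on each Matn4-/- array and at 0.07, -0.01 and -0.02 on the wt arrays. The B cell list stood at 0.10, -0.07 and 0.02 in Matn4-/- cells and 0.02, -0.06 and -0.02 in wt cells, and the T and NK cell list at 0.06, -0.02 and -0.01 in Matn4-/- cells and -0.03, 0.01 and -0.01 in wt cells. The stem cell list stood at 0.02, 0.08 and -0.13 in Matn4-/- cells and -0.01, 0.01 and 0.03 in wt cells, lowest on Matn4-/- replicate 3, where the erythroid and mast cell lists were highest. The part of these lists in the Cish values was not tested. Of the stem cell markers, 10 of 12 genes with a probe were measurable on all arrays, among them Kit, Slamf1, Procr and Mecom, while Cd48, the antigen the sort excludes, was measurable on none.

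**Figure D3:**
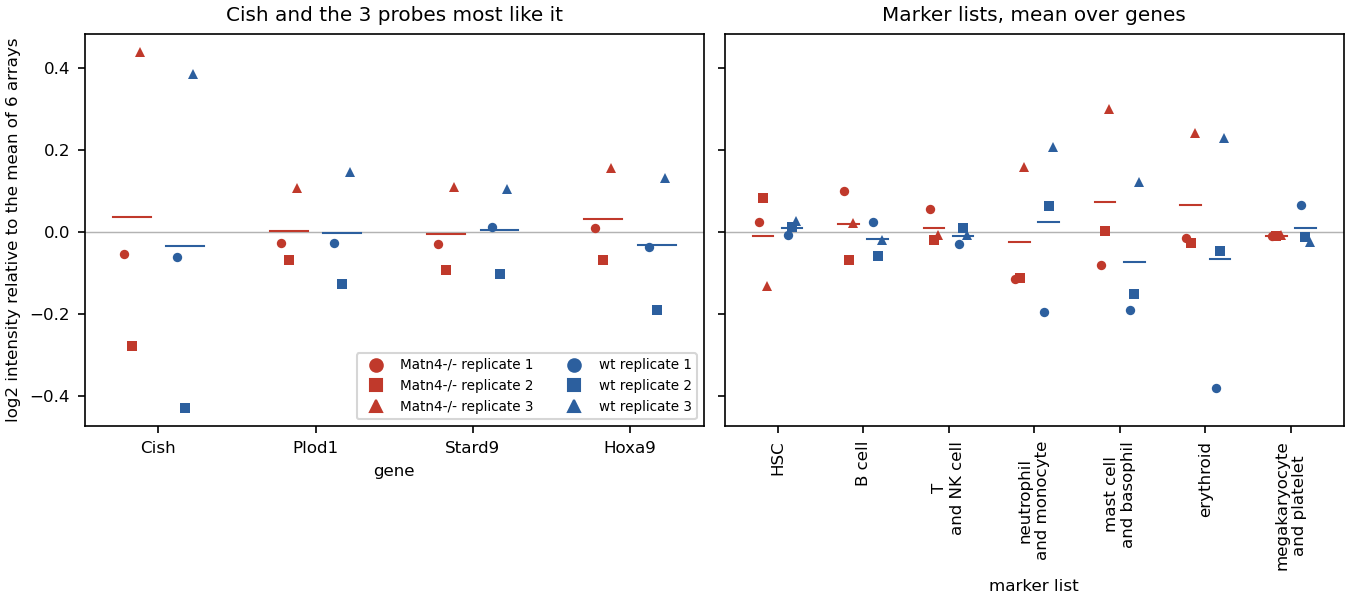
Log2 intensity relative to the mean of the 6 arrays for Cish and the 3 probes most like it (left), and the mean over the genes of each marker list (right), by array. The arrays numbered 3 are highest and those numbered 2 lowest for Cish in both genotypes, and the arrays numbered 3 are also highest in the erythroid, mast cell and neutrophil lists.

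Socs2, which encodes a feedback inhibitor of growth hormone and STAT5 signalling that is induced in stem cells by thrombopoietin, read 176, 183 and 189.7 on the Matn4-/- arrays and 188, 200.1 and 199 on the wt arrays. It was lower on average in Matn4-/- cells, and the highest Matn4-/- array lay just above the lowest wt array. The means were 183 ± 6.76 in Matn4-/- cells and 196 ± 6.66 in wt cells (SD, n = 3 each), a log2 difference of -0.10 ± 0.06 (SE, 95% interval -0.23 to 0.04, limma adjusted p = 0.9998). Socs2 varied little over the 6 arrays, by 1.14-fold from lowest to highest, against 1.83-fold for Cish. Socs3, the inhibitor that acts on gp130 and Jak kinases and is induced by STAT3, read 98.4, 97.6 and 112 in Matn4-/- cells and 105, 98.6 and 102 in wt cells. These lie within the range of the Y-linked probes on every array, so Socs3 was not detectable in either genotype and no fold is given.

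The kinases read close to background. The brightest Jak1 probe (ILMN_1213278) had 116, 137 and 136 in Matn4-/- cells and 127, 148 and 127 in wt cells, measurable on 2 Matn4-/- arrays and 1 wt array. Jak1 serves the interferon receptors and gp130. The brightest Jak2 probe (ILMN_3115162) had 127, 148 and 119 in Matn4-/- cells and 149, 132 and 134 in wt cells, measurable on 1 Matn4-/- array and 2 wt arrays. Jak2 is the kinase of the thrombopoietin and erythropoietin receptors. The brightest Tyk2 probe (ILMN_2848018), of the kinase of the interferon and interleukin-12 receptors, had 127, 131 and 148 in Matn4-/- cells and 131, 146 and 133 in wt cells. It was measurable on 1 Matn4-/- array and on all 3 wt arrays, with a log2 difference of -0.02 ± 0.08 (SE, limma adjusted p = 0.9998). That split follows the cutoffs. The reading of 130.8 on Matn4-/- replicate 2 fell below that array's cutoff of 134, and 130.6 on wt replicate 1 lay above its cutoff of 127. The groups overlapped in all 3 probes. Of the other 7 kinase probes, 2 Jak2 probes were measurable on 1 array each and 5 on none. Both other Tyk2 probes had groups that did not overlap, in opposite directions, at 108 to 121 in Matn4-/- cells and 105 to 108 in wt cells for ILMN_2455699 and at 120.3 to 121 in Matn4-/- cells and 122 to 126 in wt cells for ILMN_2455701. Neither was measurable on any array.

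The rest of the pathway was read from 5 lists, and none of their members passed either. Of 98 genes, 93 had a probe, and of their 186 probes 0 passed limma's test, while 9 (4.84%) stood at an unadjusted p under 0.05, close to the 4.52% of all probes. Of the 9, 3 were higher in Matn4-/- cells, where 1.89% of all probes stood, and 6 were lower, where 2.64% stood. The median log2 difference was 0.01, as for all probes. Genes named here have the smallest p of their list and did not pass.

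Among 27 cytokine receptor genes (57 probes, 33 higher and 24 lower), Ifnar2, a chain of the type I interferon receptor, read 179, 144 and 171 in Matn4-/- cells and 179, 215 and 192 in wt cells. Its log2 difference was -0.25 ± 0.10 (SE, limma unadjusted p = 0.0333, adjusted p = 0.9998), and its other probes stood at -0.15 and 0.09. The difference was -0.16 without Matn4-/- replicate 2 and -0.71 with background subtracted, a step that enlarges the differences of dim probes. Ifngr1, of the interferon-gamma receptor, stood at -0.33 ± 0.16 with overlapping groups, at -0.19 without wt replicate 2 and at -0.49 without Matn4-/- replicate 1. For Kit, the stem cell factor receptor, a dim probe stood at -0.11 and the brighter ones at -0.01 and 0.13. The remaining gene, Lepr, was measurable on no array. Among 18 ligand genes (35 probes), 3 were measurable on all arrays. Kitl, at 115 to 119 in Matn4-/- cells and 105 to 109 in wt cells, and Il3 were measurable on none. Il15 stood at -0.11 on the probe of smallest p and at -0.03, 0.07, -0.11 and -0.10 on its 4 others. Il27 stood at -0.12, and at -0.05 without Matn4-/- replicate 3.

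Among 5 other JAK and STAT genes (11 probes, 3 higher and 8 lower), Stat4, the factor of interleukin-12 signalling, had both probes of the list that stood at an unadjusted p under 0.05. One (ILMN_1215254) read 139, 133 and 132 in Matn4-/- cells and 162, 145 and 152 in wt cells, with no overlap and a log2 difference of -0.18 ± 0.06 (SE, limma unadjusted p = 0.0184, adjusted p = 0.9998). It was measurable on 1 of 3 Matn4-/- arrays and on all 3 wt arrays. The second (ILMN_2614970) was measurable on all 6 arrays. It read 145, 143 and 143 in Matn4-/- cells and 164, 153 and 162 in wt cells. Its groups did not overlap either, with Matn4-/- below wt as in 4.29% of all probes. Its log2 difference was -0.15 (limma unadjusted p = 0.0277, adjusted p = 0.9998), and the others stood at -0.03 each. Irf9, a factor of the interferon response, stood at 0.23 and -0.01 on its 2 probes, Stat2 at 0.10, and Jak3 at -0.07 and -0.04. These values moved with single arrays. The first Irf9 probe stood at 0.39 without Matn4-/- replicate 1 and at 0.13 without Matn4-/- replicate 3, Stat2 at 0.05 without wt replicate 2, and the first Jak3 probe at -0.16 without wt replicate 1 and at 0.01 without wt replicate 3.

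Among 19 other SOCS and inhibitor genes (37 probes, 19 higher and 18 lower), Socs4 read 197, 240.2 and 182 in Matn4-/- cells and 233, 259 and 256 in wt cells. Its log2 difference was -0.28 ± 0.10 (SE, limma unadjusted p = 0.0234, adjusted p = 0.9998), with 1 Matn4-/- array above the lowest wt array. Pias2, of a family of STAT inhibitors, stood at 0.35 ± 0.13 on a probe measurable on 3 Matn4-/- arrays and 1 wt array, and at -0.08 and 0.08 on probes measurable on none. Ptpn6, the phosphatase SHP-1, had 2 probes, and in both every Matn4-/- array lay below every wt array, as in 4.29% of all probes. One read 313, 294 and 327 in Matn4-/- cells and 335, 364.5 and 328 in wt cells (log2 -0.14). Its groups were nearly tied at their edges, with 326.8 in Matn4-/- replicate 3 and 327.7 in wt replicate 3. The second read 257, 244 and 264 in Matn4-/- cells and 275, 280.5 and 271 in wt cells (log2 -0.11), and both had an adjusted p of 0.9998 in limma. Ptpn2, a phosphatase of Jak kinases, was measurable on no array on its probe of smallest p.

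Among 26 STAT3 and STAT5 target genes (49 probes, 28 higher and 21 lower), the smallest p was that of Bcl6, a repressor that STAT5 is known to lower. Its probe stood lower in Matn4-/- cells, at -0.24 ± 0.07 (SE, limma unadjusted p = 0.0102, adjusted p = 0.891). It was measurable on 0 Matn4-/- arrays and 1 wt array. Ccnd2, the D-type cyclin induced by STAT5, read 163, 159 and 154 in Matn4-/- cells and 176, 176 and 191.5 in wt cells on 1 probe (log2 -0.19 ± 0.06, limma unadjusted p = 0.012, adjusted p = 0.916). Its 3 other probes stood at 0.01, 0.13 and 0.07, so the probes of this gene did not go one way. Bcl2, a survival gene, read 217.5, 193 and 325 in Matn4-/- cells and 165, 206 and 181 in wt cells on 1 probe (log2 0.38 ± 0.18), where the highest array was Matn4-/- replicate 3, and stood at -0.05 on the other. Without that array the first probe stood at 0.16. Cdkn1a, which encodes the cell cycle inhibitor p21, read 122 to 132 in Matn4-/- cells and 108 to 118 in wt cells on its probe of smallest p. That probe was measurable on 1 Matn4-/- array, and the gene's 2 other probes are not described here.

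**Figure D4:**
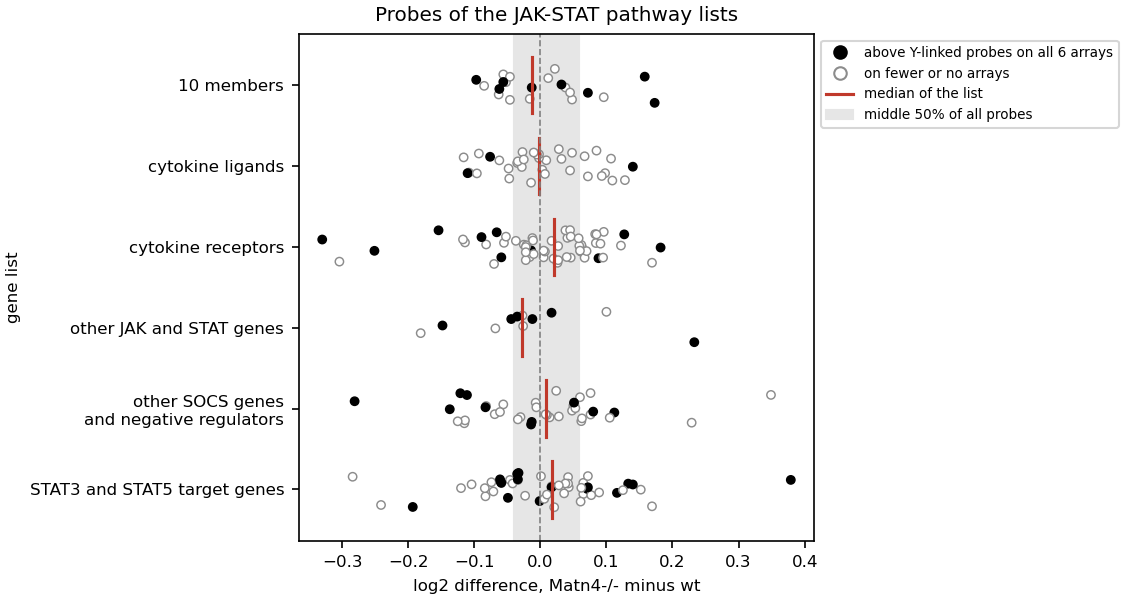
Log2 difference, Matn4-/- minus wt, of each probe of the 10 members and of the 5 pathway lists, filled where measurable on all 6 arrays, with the list's median in red and the middle 50% of all probes in grey. The medians lie between -0.03 and 0.02, inside the grey band.

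Matn4 and Ptprc, the CD45 gene, lie on chromosomes 2 and 1, and no member lies on either. Of the genes named from the lists, Stat4 and Bcl2 lie on chromosome 1 with Ptprc, where the donors differed in CD45 allele, so for them genotype and that donor difference cannot be told apart. Matn4 did not separate the groups, at 168, 318 and 331 in Matn4-/- cells and 310.3, 158 and 378 in wt cells on its brightest probe. The position of that probe relative to the deletion is unknown here, so the genotype labels are taken as given for every direction above. Ptprc, whose product is also a phosphatase of Jak kinases, read 226, 208 and 192 in Matn4-/- cells and 247, 209 and 226 in wt cells on its brightest probe (log2 -0.12 ± 0.08, limma adjusted p = 0.9998).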

How the data were processed

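RNA of 3 Matn4-/- and 3 wt samples was amplified from 2.5 ng and hybridised to one-colour Illumina arrays, per the labels' protocols. The deposited value table gives 1 intensity per probe and array. How the authors normalized it is not stated in any source at hand. The column medians of 118 to 120.4 and means of 156.55 to 157.15 show values brought to a similar level with background left in. The arrays were more alike in the mean than in the median. A second table was not used, because the names of its 12 value columns match no label.

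Intensities were taken to log2 and fitted over all 46237 probes by lmFit and eBayes of limma 3.58.1 (R 4.3.3) with a genotype term alone, with Benjamini-Hochberg adjustment and a threshold of 0.05. The fit was tested on simulated data. Symbols came from the platform table, updated through Entrez identifiers or accessions for the lists. Plots were drawn with matplotlib 3.10.9 from tables made with pandas 2.3.3 in Python 3.11.15. The number of arrays limits the precision.

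All member probes are named, and per list the 4 genes with the smallest p where fewer passed. Likeness was searched for the 3 members whose brightest probe varied most. Members and lists were chosen with earlier results of these data known. Alternatives were another normalization, filter, unit, background or spread estimate, array weights, a replicate block and leaving out each array.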

Additional observations from a re-analysis of the deposited data

How the results depend on the processing

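The count of member probes past the threshold was 0, as was that of the pathway lists, in the limma fit and in each of the 15 alternatives, with adjusted p-values of at least 0.452 for the 8 measurable member probes. The count over all probes, 12, was 7 with the brightest probe per gene, where fewer were tested, 0 with background subtracted, and 3 to 15 with each array left out. In the last fits it was 7 without Matn4-/- replicate 2, 3 without wt replicate 1 and 5 without wt replicate 2 or 3. Of the 8 probes, 4 changed sign in some alternative. Stat3 ILMN_3096144 stood at 0.011 with cyclic loess and 0.019 with array weights, and array weights put Stat5a ILMN_2976188 at 0.003 and Cish at -0.079. With each array left out, Stat3 ILMN_2698046 ranged from -0.02 to 0.069, Stat3 ILMN_3096144 from -0.046 to 0.029, Stat5a ILMN_2976188 from -0.182 to 0.098, Cish from -0.13 to 0.282, and Jak3 ILMN_1219155, of the lists, from -0.159 to 0.006. The causes were not tested. Il6st ILMN_2608184 ranged from 0.12 to 0.43 over the alternatives, highest with background subtracted, the brighter Stat5a probe from 0.10 to 0.26 and Socs2 from -0.27 to -0.06, each in 1 direction. With the replicate number as a block, 8 probes passed and no member, and Cish kept its difference of 0.07 with an SE of 0.065, against 0.223 without the block. Deviations of same-numbered arrays from their group means correlated at -0.002, 0.048 and 0.042 over all probes. Those of differently numbered arrays correlated at -0.061 to 0.011. Such weak correlations from 3 arrays per genotype cannot settle whether same-numbered arrays were paired, and the labels do not say. Dim probes limit what can be said of Jak1, Jak2, Tyk2, Stat5b and Socs3.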
